A study of Mus musculus with 8 samples.

Results

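Mural cells are the pericytes and vascular smooth muscle cells that wrap blood vessels. The 10 genes described here mark them: Rgs5, Pdgfrb, Cspg4, Acta2, Myh11, Tagln, Cnn1, Notch3, Kcnj8 and Abcc9. They were chosen by name from a list of mural markers and matched by Ensembl identifier to mouse symbols on GRCm38. All 10 were found among the 55487 genes of the count files, and all 10 were among the 14695 genes with enough reads to test. RNA came from the left ventricle of 8 C57BL/6 mice aged 12 weeks, and the study compared 2 genotypes. The 4 controls are titled NLC and labelled wild-type. The 4 knockouts, called KO here, are titled CM-ADGRF5-KO and labelled GPR116-/- with the deletion restricted to myocytes (GPR116 is another name for ADGRF5, an adhesion G protein-coupled receptor encoded by Adgrf5). Libraries 1 and 2 of each genotype came from males and libraries 3 and 4 from females. The promoter or Cre line behind the deletion is not given in the sources used here, and no allele or agent shared by both groups is named.

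Pericytes sit on capillaries and contact the endothelium directly, while smooth muscle cells form the contractile layer of arterioles and arteries. Endothelial cells recruit both through platelet-derived growth factor B acting on the receptor PDGFRβ, and Notch signalling from the endothelium maintains them. The contractile genes of smooth muscle are switched on largely by serum response factor (SRF) with its coactivator myocardin, which act at a short DNA element called the CArG box. The mural cells were not sorted: each value is the RNA of a whole piece of ventricle, in which a smaller number of cells of a type and less RNA per cell cannot be told apart.

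Libraries held 25.3 to 39.6 M reads assigned to genes, of which 17.4% to 21.9% came from mitochondrial genes. At these depths 3 reads correspond to 0.0757 to 0.118 CPM (a gene's reads relative to the size of its library, which edgeR scales by TMM factors), far below every value of the 10 markers. Adgrf5 itself stood at 218.2 to 257.0 CPM in the controls and 203.0 to 239.8 CPM in the KO libraries (log2 fold change -0.05, SE 0.0754, edgeR adjusted p = 0.782). Counts over the whole gene include transcripts of non-myocytes such as endothelium, so this level does not check the deletion in myocytes. Control 4 stood apart in markers of other tissues. Its summed atrial markers were 6169 CPM against 396 to 1493 CPM in the other 7 libraries, and its epicardial and mesothelial sum was 33.6 CPM against 3.38 to 8.46 CPM. The 4 mice of a genotype are biological replicates per the series design.

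None of the 10 mural markers passed the test between KO and control (edgeR quasi-likelihood, sex as a covariate, Benjamini-Hochberg adjusted p below 0.05), where 15 of 14695 genes or 0.102% were called. Their log2 fold changes ran from -0.49 for Cnn1 to 0.37 for Acta2, with 4 above 0 and 6 below. The median was -0.11, against -0.01 over all genes tested. Adjusted p-values lay between 0.491 and 0.957. No marker had an unadjusted p below 0.05, where 11.9% of all genes did, and DESeq2 and limma called none. In none of the 10 did the 4 KO libraries lie wholly above or below the 4 controls, which happened for 6.25% of all genes tested.

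**Figure D1:**
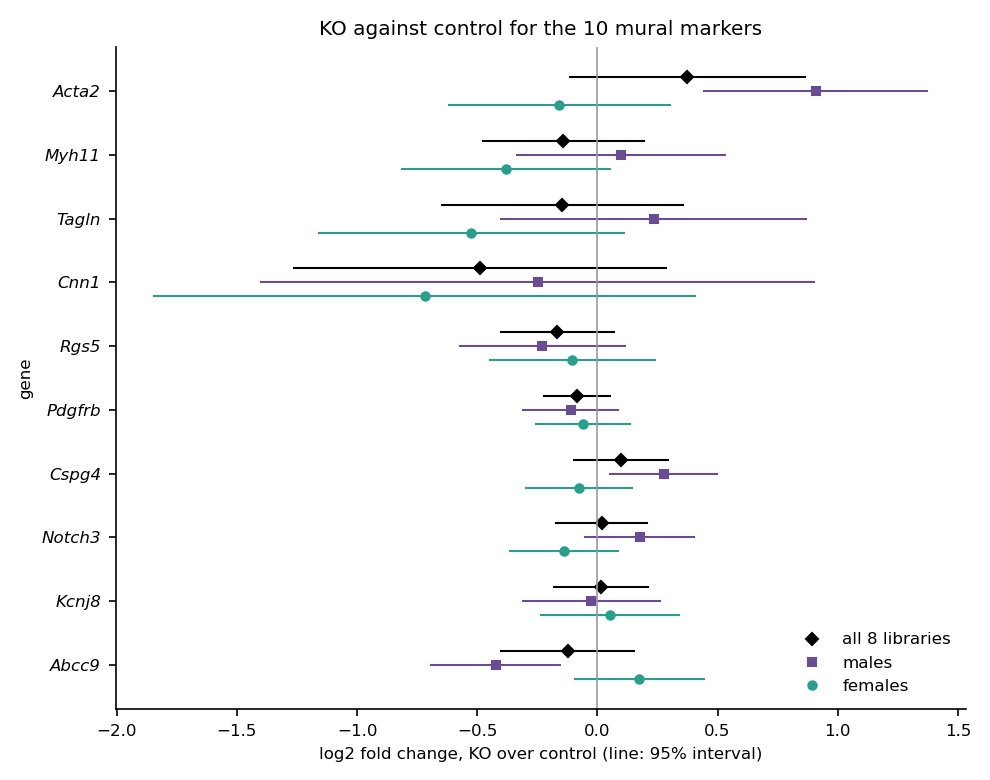
Log2 fold change of KO over control (x axis) for each of the 10 markers (y axis), over all libraries and within each sex, with 95% confidence intervals derived from the edgeR test statistic. All 10 intervals over the 8 libraries cross 0, and Acta2 lies farthest to the right in males at 0.91.

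The 4 contractile genes encode parts of the smooth muscle contraction machinery. Acta2 (ENSMUSG00000035783, chr19:34241090-34255590, minus strand) encodes smooth muscle α-actin. Its levels in controls 1 to 4 were 149.8, 119.5, 227.8 and 264.2 CPM, and in KO 1 to 4 they were 297.0, 208.3, 257.2 and 183.7 CPM. The male controls were the lowest of the 8 libraries and a male KO the highest, and the genotypes overlapped because of the females. The control mean was 190.3 ± 67.1 CPM and the KO mean 237 ± 50.6 CPM (SD, n = 4 each). The log2 fold change was 0.37 (SE 0.22, 95% confidence interval -0.12 to 0.86, edgeR adjusted p = 0.491). Leaving out KO 1 brought it to 0.16, leaving out control 2 brought it to 0.19, and leaving out KO 4 brought it to 0.58.

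Acta2 is the textbook target of SRF, and 2 CArG-like elements lie just before its RefSeq start. Among the 7 markers found in the RefSeq promoter table (GRCm38.p6), it was the only one with such an element, so both are shown on the minus strand with the 10-base element in capitals. The first lies 84 bases before the RefSeq start at chr19:34255438-34255467 and the second 34 bases before it at chr19:34255388-34255417. Both lie inside the longer first exon that GENCODE annotates.
Acta2, far element: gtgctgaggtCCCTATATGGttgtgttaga
Acta2, near element: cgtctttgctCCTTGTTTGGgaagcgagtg
The CArG box was searched as CC, then 6 bases of A or T, then GG. That strict form was absent from all 7 promoters and present in 1.47% of 32851 promoters of the same length, 250 bases before the start. Allowing 1 G or C among the 6 central bases, as in both Acta2 elements, the share was 8.59%. The search pattern is its own reverse complement, so it finds the element on either strand. The motif TGGGAA, the core bound by the Notch partner RBPJ, was searched on both strands and occurs in 21.6% of promoters. In Acta2 it overlaps the near element by 3 bases. Pdgfrb, Myh11 and Tagln were not matched.

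Myh11 (chr16:14194535-14291372, minus strand) encodes the smooth muscle myosin heavy chain, the motor protein that marks mature smooth muscle. It stood at 75.19, 59.31, 72.43 and 114.7 CPM in controls 1 to 4 and at 68.74, 75.29, 74.22 and 69.67 CPM in KO 1 to 4. Control 4 was the highest library and control 2 the lowest, and the 4 KO libraries lay between them. The means were 80.4 ± 23.9 CPM and 72.0 ± 3.26 CPM (SD, n = 4 each), a log2 difference of -0.14 (SE 0.151, interval -0.48 to 0.19, edgeR adjusted p = 0.697). Without control 4 the sign turned, to 0.05.

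Tagln (chr9:45929619-45936058, minus strand) encodes transgelin, an actin-binding protein of smooth muscle. Controls 1 to 4 held 63.83, 46.18, 60.62 and 107.1 CPM, and KO 1 to 4 held 59.82, 69.72, 71.31 and 45.24 CPM. Control 4 was again highest, and the lowest values were those of KO 4 and control 2. The genotypes overlapped in part. The log2 fold change was -0.15 (SE 0.226, interval -0.65 to 0.36, edgeR adjusted p = 0.795). It became 0.12 without control 4 and 0.05 without KO 4. Tagln overlaps Pcsk7 on the opposite strand, whose mean was at most 25.9 CPM; how reads were assigned to strands is not given in the sources used here.

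Cnn1 (chr9:22099216-22109630, plus strand) encodes calponin 1, which binds actin and inhibits myosin ATPase. It read 6.71, 4.04, 4.99 and 11.96 CPM in controls 1 to 4 and 3.78, 5.33, 7.51 and 2.74 CPM in KO 1 to 4. Control 4 was highest and KO 4 lowest, and the other 6 libraries of both genotypes were mixed between them. Its log2 fold change had the widest interval of the 10 markers, -0.49 (SE 0.348, interval -1.26 to 0.28, edgeR adjusted p = 0.558). Without control 4 it was -0.13 and without KO 4 it was -0.22. The bases before the Cnn1 start, chr9:22099003-22099215 on the plus strand, are shown as the contractile gene against which to read Acta2. They hold no CArG-like element and no TGGGAA.
Cnn1 upstream: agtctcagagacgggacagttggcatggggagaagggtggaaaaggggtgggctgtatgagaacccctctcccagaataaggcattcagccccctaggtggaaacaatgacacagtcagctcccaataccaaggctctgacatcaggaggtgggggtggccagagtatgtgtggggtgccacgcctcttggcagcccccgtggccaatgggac

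**Figure D2:**
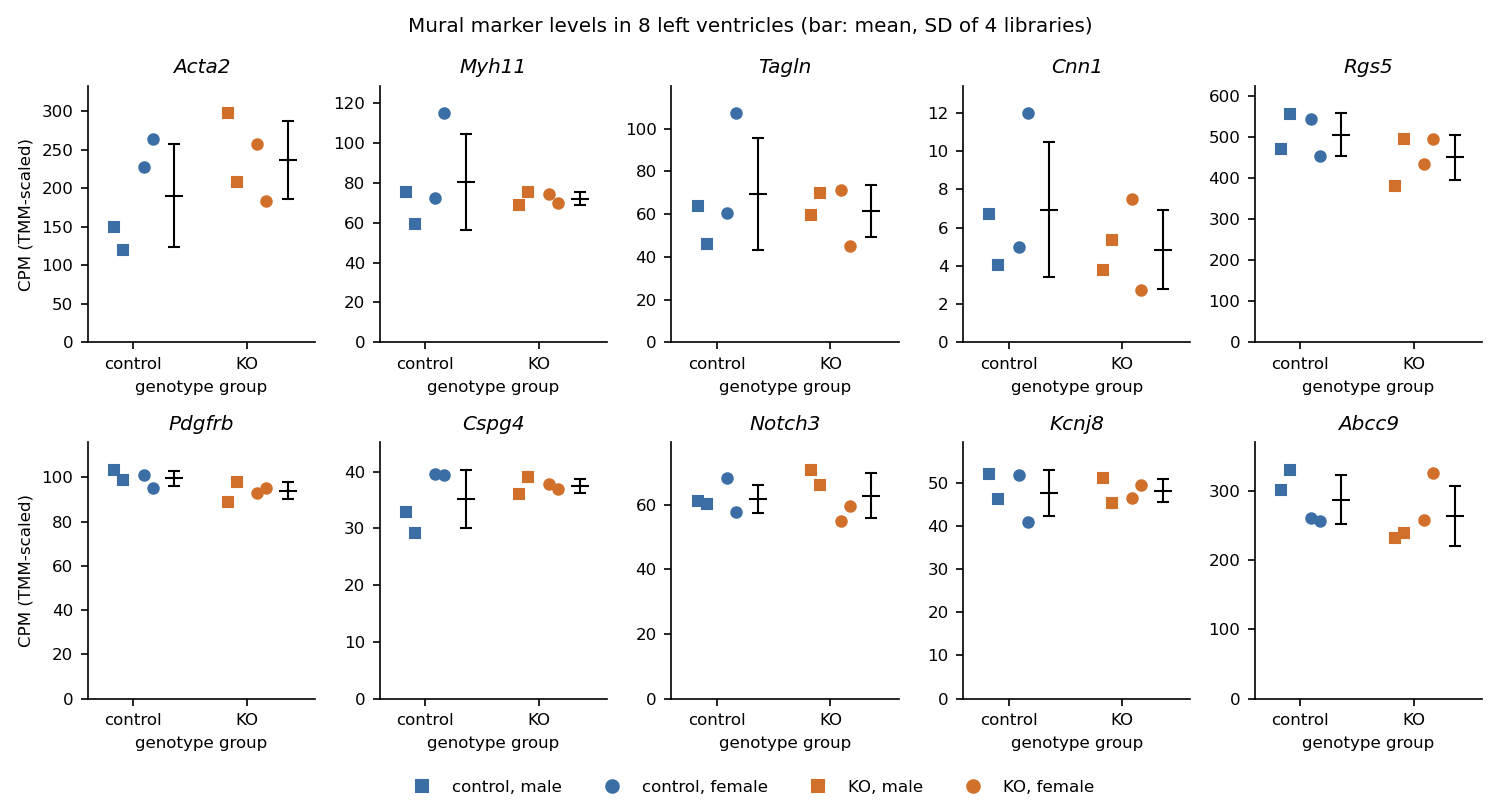
CPM (y axis, from 0) of each of the 10 markers in every library by genotype (x axis), with points by sex and the mean ± SD of each genotype. Control 4 is the top point for Myh11, Tagln and Cnn1, at 114.7, 107.1 and 11.96 CPM, and the 2 male controls are the lowest points for Acta2.

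Myh11, Tagln and Cnn1, 3 of the 4 contractile markers, were thus highest in the same library, control 4. The fourth, Acta2, was highest in KO 1. In control 4, all 8 atrial markers, 5 of 6 epicardial and mesothelial markers, 4 of 5 adipocyte markers and 5 of 5 Schwann cell markers were also at their highest of the 8 libraries. Upk3b is in both the atrial and the epicardial and mesothelial list. Other lists did not peak there: 0 of 10 endothelial, 0 of 5 red blood cell, 1 of 10 fibroblast and 1 of 8 cardiomyocyte markers were highest in control 4. It was 1 of 8 each for macrophage, lymphocyte and skeletal muscle markers, and 1 of 6 for valve and outflow tract markers. Of the 6 other mural markers, 0 were highest there. The share of all genes highest in control 4 is not given here. The adipocyte sum was 51.7 CPM there against 1.28 to 20.99 CPM elsewhere, and the Schwann cell sum was 22.9 CPM against 8.58 to 13.5 CPM. The atrial marker Bmp10, the epicardial marker Upk1b and the brown fat marker Ucp1 were at 0 in some other libraries. Valve and outflow tract markers, which can come with smooth muscle of the great vessels, summed to 61.3 CPM in control 4, 59.3 CPM in control 1, 79.9 CPM in KO 3 and 19.6 to 34.8 CPM in the other 5. Without control 4, none of the 10 markers passed the edgeR test between KO and control either. The part of these tissues in the contractile values was not tested.

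The receptors and surface proteins of mural cells varied little. Pdgfrb (chr18:61045150-61085061, plus strand) encodes the receptor for PDGF-B on pericytes, smooth muscle and fibroblasts. It read 103.5, 98.63, 101.1 and 95.41 CPM in controls 1 to 4 and 88.97, 98.12, 93.11 and 95.44 CPM in KO 1 to 4. The controls held the 3 highest values and the KO libraries the 2 lowest, with overlap in the middle. The log2 fold change was -0.09 (SE 0.0616, interval -0.22 to 0.05, edgeR adjusted p = 0.563). This was the narrowest interval of the 10 markers, and the SD of log2 CPM over the 8 libraries was 0.069, the smallest among them.

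Notch3 (chr17:32120820-32166852, minus strand) encodes the Notch receptor of arterial smooth muscle and pericytes. It read 61.13, 60.17, 68.21 and 57.96 CPM in controls 1 to 4 and 70.91, 66.06, 54.91 and 59.71 CPM in KO 1 to 4. The highest and the lowest libraries were both KO, so the control range lay inside the KO range. The log2 fold change was 0.02 (SE 0.0853, interval -0.17 to 0.21, edgeR adjusted p = 0.935). Its sign turned without control 1, control 2 or KO 1, with values between -0.03 and -0.01.

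Cspg4 (chr9:56865033-56899870, plus strand) encodes the NG2 proteoglycan, a surface marker of pericytes. It read 32.87, 29.17, 39.54 and 39.42 CPM in controls 1 to 4 and 36.13, 39.05, 37.81 and 37.01 CPM in KO 1 to 4. As with Acta2, the 2 male controls were the lowest libraries, and the 2 female controls were the highest. Its log2 fold change over all libraries was 0.10 (SE 0.0879, interval -0.10 to 0.29, edgeR adjusted p = 0.638). Because Cspg4 shared the low male controls with Acta2, its upstream bases are shown, chr9:56864854-56865032 on the plus strand. Neither motif occurs in them.
Cspg4 upstream: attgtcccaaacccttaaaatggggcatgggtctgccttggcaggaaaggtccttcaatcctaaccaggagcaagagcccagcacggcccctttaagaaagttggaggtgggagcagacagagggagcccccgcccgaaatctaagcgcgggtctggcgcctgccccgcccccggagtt

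Rgs5 (chr1:169655501-169695813, plus strand) encodes a regulator that shortens G protein signalling, and it is among the most used pericyte markers. Controls 1 to 4 held 470.1, 555.1, 545.1 and 454.1 CPM, and KO 1 to 4 held 380.6, 494.3, 435.6 and 494.3 CPM. Controls 2 and 3 lay above all KO libraries and KO 1 and KO 3 lay below all controls, while the rest overlapped. The means were 506 ± 51.4 CPM and 451 ± 54.6 CPM (SD, n = 4 each), a log2 difference of -0.17 (SE 0.107, interval -0.40 to 0.07, edgeR adjusted p = 0.518). Leaving out 1 library at a time kept it between -0.23 and -0.08.

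Kcnj8 and Abcc9 encode the 2 subunits of the vascular ATP-sensitive potassium (KATP) channel, which links the metabolic state of mural cells to their membrane potential. Kcnj8 (chr6:142564837-142571614) encodes the pore Kir6.1 and Abcc9 (chr6:142587862-142702315) the sulfonylurea receptor SUR2. The genes are neighbours on the minus strand, 16.2 kb apart. Abcc9 also serves the channel of cardiomyocytes, where SUR2 pairs with Kir6.2, the product of Kcnj11, so it is not a marker of mural cells alone in heart.

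Kcnj8 read 52.14, 46.34, 51.82 and 40.87 CPM in controls 1 to 4 and 51.28, 45.48, 46.59 and 49.49 CPM in KO 1 to 4. The controls spanned more than the KO libraries did and enclosed them. The log2 fold change was 0.01 (SE 0.0881, interval -0.18 to 0.21, edgeR adjusted p = 0.957). With library totals in place of TMM factors it was -0.00445, and it was also below 0 when control 2, control 4, KO 1 or KO 4 was left out (-0.06 to -0.01).

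Abcc9 read 301.3, 330.9, 260.9 and 256.7 CPM in controls 1 to 4, and 231.5, 239.8, 258.0 and 326.3 CPM in KO 1 to 4. The male controls were high and the male KO libraries low, while KO 4, a female, was nearly as high as control 2. The log2 fold change was -0.12 (SE 0.125, interval -0.40 to 0.15, edgeR adjusted p = 0.679). It ranged from -0.25 without KO 4 to -0.04 without control 2. The bases upstream of Abcc9 are shown because it ran opposite to Acta2 across the libraries. They lie at chr6:142702316-142702524 on the minus strand, with 1 TGGGAA in capitals that starts 221 bases before the RefSeq start. This motif occurs in 21.6% of promoters, and a link between it and the covariation was not tested.
Abcc9 upstream: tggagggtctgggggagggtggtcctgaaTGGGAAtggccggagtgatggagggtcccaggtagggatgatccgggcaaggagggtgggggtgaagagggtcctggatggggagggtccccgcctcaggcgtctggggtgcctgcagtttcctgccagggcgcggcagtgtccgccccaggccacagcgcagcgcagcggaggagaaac

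The design has 2 mice of each sex in each genotype, so the KO difference was also taken within each sex and compared between them. No member passed the test of the difference, and none of the 14695 genes did (0%). By unadjusted p below 0.05, 3 of 10 members stood out, Acta2, Abcc9 and Cspg4, where 7.46% of all genes did. Across the libraries Acta2 had a Pearson r of -0.85 with Abcc9 and 0.81 with Cspg4, so the 3 may not be separate results. For Acta2 the log2 difference was 0.91 in males (SE 0.206, edgeR adjusted p = 0.156) and -0.16 in females (SE 0.204, adjusted p = 0.98). The male minus female difference was 1.07 (SE 0.29, interval 0.41 to 1.72, edgeR adjusted p = 0.648). DESeq2 called it, with an adjusted p of 0.0316, and 15 genes in all.

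Abcc9 had the opposite signs, -0.42 in males (SE 0.119, edgeR adjusted p = 0.182) and 0.17 in females. The difference was -0.60 (SE 0.169, interval -0.98 to -0.22, edgeR adjusted p = 0.648). For Cspg4 the values were 0.28 and -0.08, with a difference of 0.35 (edgeR adjusted p = 0.648). Leaving out 1 library at a time, the difference ran from 0.79 to 1.33 for Acta2 and from -0.76 to -0.42 for Abcc9. For Cspg4 it ran from 0.27 to 0.44. The other contractile genes also had male values above female ones: 0.10 and -0.38 for Myh11, 0.23 and -0.52 for Tagln, and -0.25 and -0.72 for Cnn1. None of the 3 had an unadjusted p below 0.05. Without control 4 the male minus female difference was 0.11 in place of 0.48 for Myh11 and 0.29 in place of 0.76 for Tagln. That of Cnn1 turned from 0.47 to -0.30 without control 4 and to -0.08 without KO 4.

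Within males, 5 of 10 members had KO and control libraries that did not overlap (Acta2, Pdgfrb, Cspg4, Notch3 and Abcc9), against 50.9% of all genes. Within females it was 1 of 10, Cspg4, against 34.4%. In males 3 members had an unadjusted p below 0.05, where 17.5% of genes did, and in females none did, where 5.12% of genes did. Adjusted over all genes none passed in either sex (0.0408% and 0% of genes called). The numbers in the sample descriptions place both male KO libraries ahead of both male controls, so in males that order and genotype cannot be told apart. Between the sexes, no member passed the test (0.299% of genes did). All 4 contractile genes were below 0 for male over female, from -0.42 to -0.23, with edgeR adjusted p-values of 0.539 to 0.709. Without control 4 the values were -0.20 for Acta2, -0.04 for Myh11, 0.03 for Tagln and -0.07 for Cnn1, and without control 2 that of Acta2 was -0.16.

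Compared per kilobase of merged exon (RPKM), Rgs5 and Acta2 were the most abundant markers, at 105.3 ± 12.6 and 97.2 ± 27.5 RPKM (SD, n = 8 libraries). Their ranges overlapped, and Rgs5 was above Acta2 in 5 of 8 libraries. Tagln at 32.9 ± 9.75 RPKM and Abcc9 at 32.9 ± 4.60 RPKM followed, without overlap with Acta2 and with each above the other in 4 libraries. Kcnj8 at 18.8 ± 1.53 RPKM and Pdgfrb at 17.7 ± 0.836 RPKM formed the next pair, with overlapping ranges. Myh11 stood at 10.03 ± 2.16 RPKM and Notch3 at 7.71 ± 0.676 RPKM, and although their ranges overlapped, Myh11 was higher in 8 of 8 libraries. Cspg4 at 3.05 ± 0.306 RPKM and Cnn1 at 2.15 ± 1.06 RPKM were lowest, and Cspg4 was above Cnn1 in 7 libraries. These are levels in whole ventricle, in which cardiomyocyte actin Actc1 reached 8791 RPKM.

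**Figure D3:**
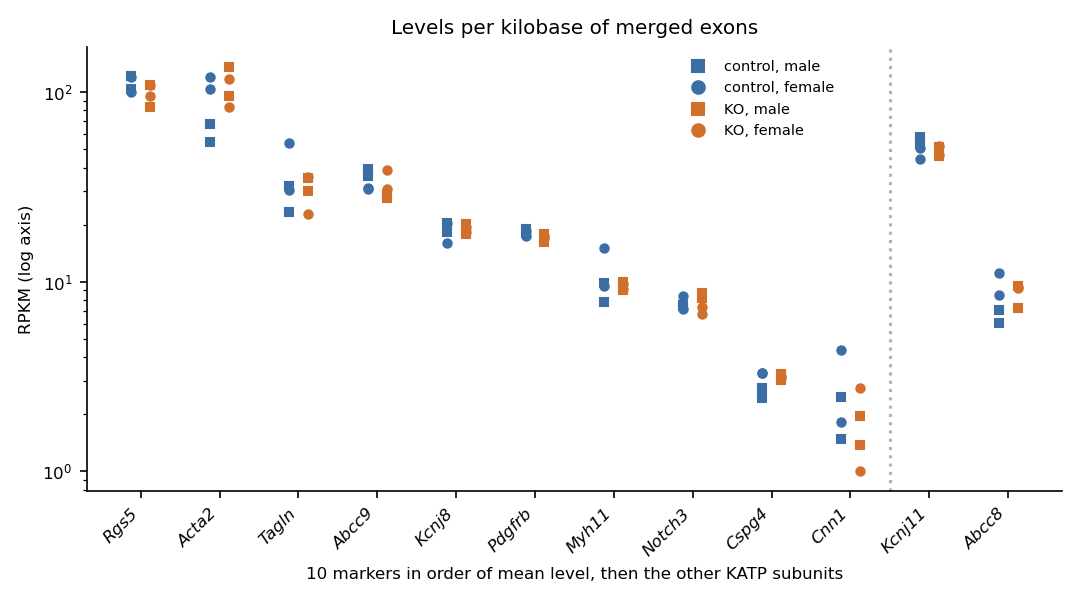
Level of each marker in RPKM (log axis) in the 8 libraries by genotype and sex, with genes in order of their mean and the KATP subunits Kcnj11 and Abcc8 to the right of the dotted line. Rgs5 and Acta2 overlap at the top at means of 105.3 and 97.2 RPKM, and Cspg4 and Cnn1 overlap at the bottom at 3.05 and 2.15 RPKM.

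Among KATP subunits, the cardiomyocyte pore gene Kcnj11 was 2.18 to 3.18 times as abundant per kilobase as the vascular pore gene Kcnj8. Its level was 50.3 ± 4.38 RPKM (SD, n = 8). Abcc9 was 1.37 to 2.17 times as abundant per kilobase as Kcnj8. Abcc8, which encodes the other sulfonylurea receptor, SUR1, stood at 8.51 ± 1.63 RPKM. The log2 fold changes of Kcnj11 and Abcc8 between KO and control were -0.07 and 0.13, and neither passed the edgeR test.

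Relative to Myh11, Acta2 counts were 1.99, 2.01, 3.15 and 2.30 times as high in controls 1 to 4 and 4.32, 2.77, 3.47 and 2.64 times in KO 1 to 4. These ratios of CPM are not per length and serve only to compare libraries. The male controls had the lowest ratios and KO 1 the highest, and control 3 lay among the KO values. The ratio of Tagln to Myh11 stayed between 0.649 and 0.961 in all 8 libraries, so these 2 genes kept a steadier proportion than Acta2 and Myh11 did.

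The markers did not vary as one block. The SD of log2 CPM over the 8 libraries had a median of 0.187 among the 10 markers and 0.184 among all genes tested, and ran from 0.069 for Pdgfrb to 0.652 for Cnn1. Over 8 libraries, 45 pairs of markers were correlated on log2 CPM, with exact permutation p-values from all pairings of the libraries. No pair passed after adjustment over the 45, and 19 were positive. All 6 pairs within the contractile genes were positive, with a median r of 0.69 (0.30 to 0.92). The 15 pairs among the other 6 markers had a median of -0.02, and the 24 pairs between the classes one of -0.27. Both genes of a pair are read from the same library, with its depth, scaling and tissue piece, so these values describe 8 hearts.

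**Figure D4:**
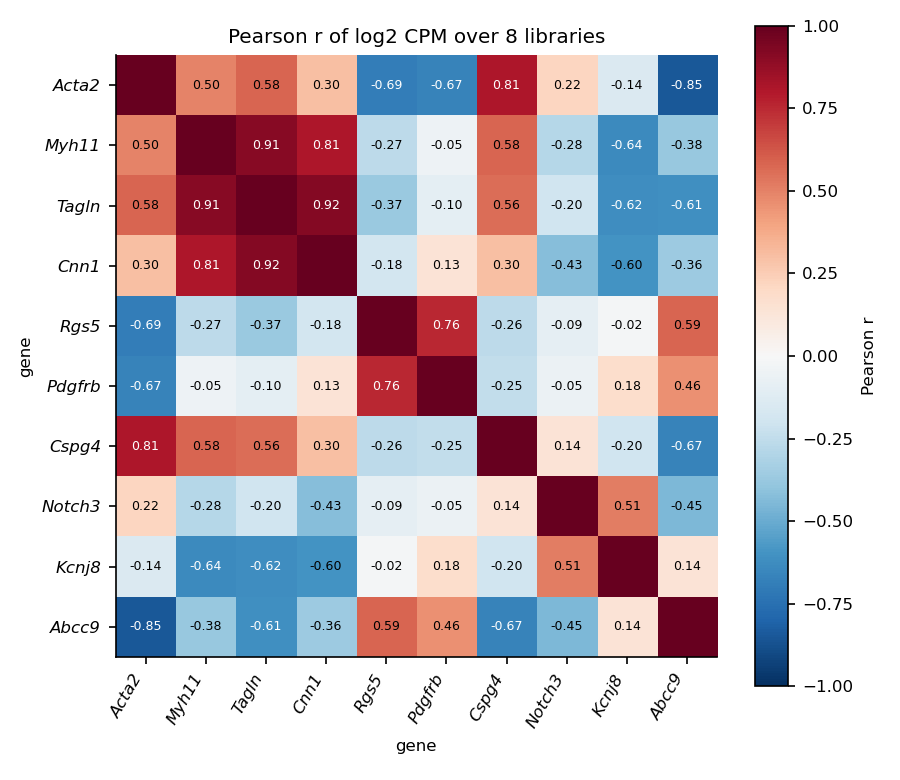
Pearson correlation of log2 CPM over the 8 libraries between each pair of the 10 markers (both axes, genes; colour, r from -1 to 1). Tagln with Cnn1 and Myh11 with Tagln are the strongest positive pairs, at 0.92 and 0.91, and Acta2 with Abcc9 the strongest negative one at -0.85.

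Tagln and Cnn1 were the closest pair, with a Pearson r of 0.92 (exact permutation p = 0.00151, adjusted 0.0681) and a Spearman rho of 0.95 (exact permutation p = 0.00114, adjusted 0.0513). Without the 2 libraries farthest from the Tagln median, control 4 and KO 4, r was 0.70. Myh11 and Tagln had an r of 0.91 (exact permutation p = 0.00308, adjusted 0.0692) and a rho of 0.86 (exact permutation p = 0.0107, adjusted 0.231). Without control 2 and control 4 that r was 0.72. Myh11 and Cnn1 had an r of 0.81 (exact permutation p = 0.0189, adjusted 0.17) and a rho of 0.81 (exact permutation p = 0.0218, adjusted 0.245). It was 0.84 without the same 2 libraries and 0.54 without control 4 alone.

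Acta2 ran against Abcc9, with an r of -0.85 (exact permutation p = 0.00905, adjusted 0.136) and a rho of -0.83 (exact permutation p = 0.0154, adjusted 0.231). Without the 2 male controls, the farthest libraries in Acta2, r was -0.72. Acta2 and Cspg4 had an r of 0.81 (exact permutation p = 0.0159, adjusted 0.17) and a rho of 0.52 (exact permutation p = 0.197, adjusted 0.681). Without the male controls this r was -0.19, so the relation rested on those 2 libraries. The pericyte genes Rgs5 and Pdgfrb had an r of 0.76 (exact permutation p = 0.0307, adjusted 0.23) and a rho of 0.71 (exact permutation p = 0.0576, adjusted 0.324). That r was 0.55 without KO 1 and control 2.

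Each genotype and each sex holds 4 libraries, too few for a correlation of their own. With the genotype and sex means removed, r was 0.94 for Tagln and Cnn1, 0.92 for Myh11 and Tagln and -0.93 for Acta2 and Abcc9. These 3 pairs then had adjusted p-values below 0.05 over the 45 pairs by the permutation test (0.0145, 0.0208 and 0.00112). That test shuffles the values as if they were independent, which they are not once means are removed. Its p-values can therefore be too small here. Without control 1, Tagln with Cnn1 (r = 0.94) and Rgs5 with Pdgfrb (r = 0.95) were the 2 pairs that passed.

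To see which other genes followed each class, the mean centred log2 CPM of the 4 contractile markers and that of the other 6 were correlated with 9872 genes of at least 5 mean CPM. This is a description over 8 libraries with no test. Among the genes most like the contractile profile were Myl9 (r = 0.98), Sgce (0.96), Tpm2 (0.96) and Fgfr1 (0.95). Myl9 encodes a myosin regulatory light chain and Tpm2 a tropomyosin. Myl9 was at 92.2 CPM in control 4 and 35.7 to 62.7 CPM in the other 7 libraries, the same high library as for Myh11, Tagln and Cnn1. The mean profile of the other 6 markers was nearly flat, from -0.070 in KO 3 to 0.095 in control 3. Their pairs had a median r of -0.02, so it is not a pattern they share. The 5 genes most like that profile were Mertk (r = 0.97), Tnfsf10 (0.96), Hnrnpu (0.95), Lgals8 (0.92) and Myct1 (0.92). Mertk, a receptor kinase of phagocytes, ran only from 9.57 to 12.7 CPM.

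**Figure D5:**
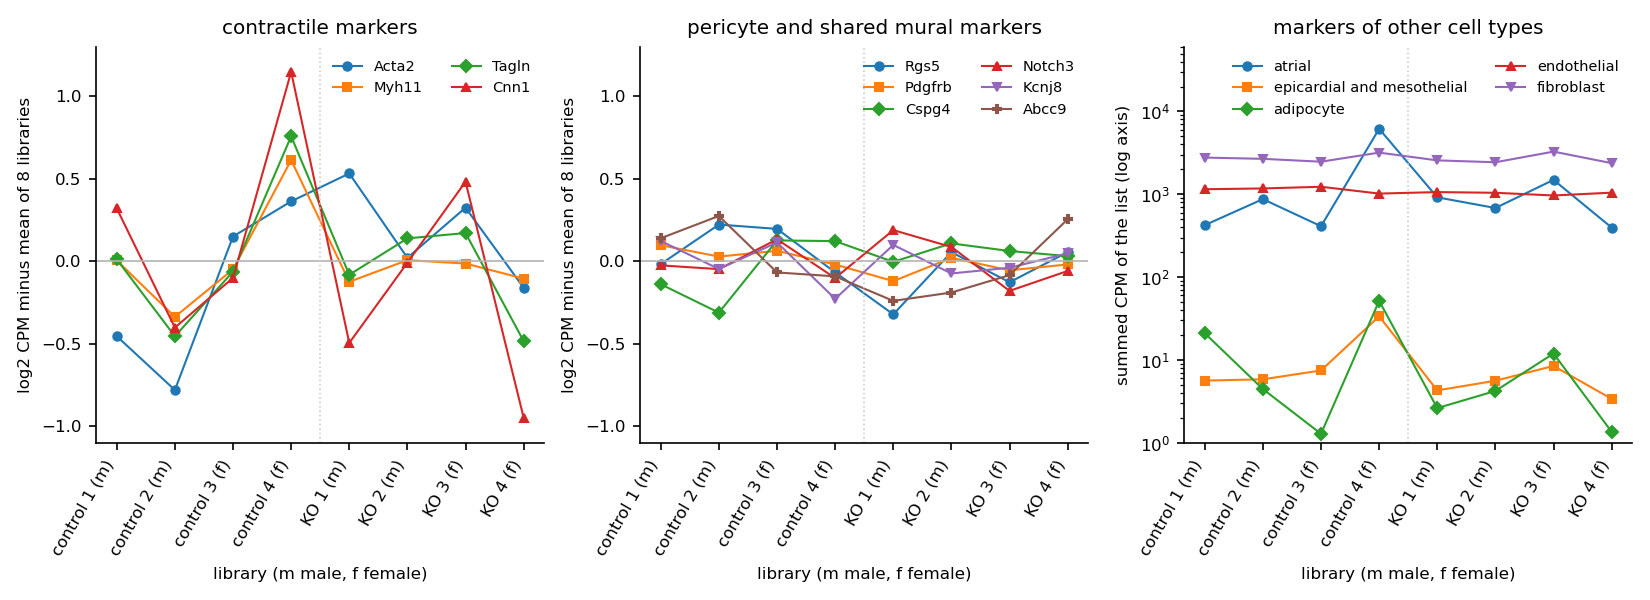
Centred log2 CPM (y axis) of the 10 markers in each library (x axis, m male and f female), in separate panels for the contractile and the other markers, with the summed CPM (log axis) of 5 lists of other cell types in the right panel. Myh11, Tagln and Cnn1 peak together in control 4, while Acta2 is lowest in the 2 male controls. The atrial, epicardial and adipocyte sums also peak in control 4, and the endothelial and fibroblast sums do not.

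Genes that work beside the markers gave the same count of calls. Of 12 further smooth muscle genes none was called by edgeR (4 above and 8 below 0, median log2 fold change -0.11). Of the 12, 8 were highest in control 4, and the share of all genes highest there is not given here. Pln is in both this list and the cardiomyocyte list. Lmod1, which nucleates actin filaments in smooth muscle, was at -0.39 (SE 0.229). It read 18.6 CPM in control 4 and 6.77 to 9.15 CPM in the other 7 libraries, and without control 4 its log2 fold change was -0.05. Smtn, smoothelin, was at 0.27, Mustn1 at -0.23 and Cald1, caldesmon, at -0.16 (-0.14 and -0.11 without control 4 for the last 2). Of 15 further pericyte genes none was called (5 above and 10 below, median -0.09), and 3 had an unadjusted p below 0.05, where 11.9% of all genes did. Steap4, a metalloreductase, was at 36.24 to 40.11 CPM in the controls and 31.94 to 33.48 CPM in the KO libraries, without overlap, as for 6.25% of all genes. The difference on the log2 scale was -0.24 (edgeR adjusted p = 0.266, SE 0.0664). Gucy1a1, a subunit of the nitric oxide receptor guanylate cyclase, was at -0.57 (SE 0.194, edgeR adjusted p = 0.344) with its highest value, 46.5 CPM, in control 4, and at -0.30 without that library. Mcam was at -0.19 and Tbx18, a transcription factor of mural cells, at -0.31.

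Of the 5 PDGF ligands and receptors outside the 10 markers none was called by edgeR (1 above and 4 below 0, median -0.14), with 2 at an unadjusted p below 0.05, where 11.9% of all genes were. Pdgfc was at 2.33 to 3.71 CPM in the controls and 1.77 to 2.11 CPM in the KO libraries, without overlap, as for 6.25% of all genes (log2 fold change -0.70, SE 0.182, edgeR adjusted p = 0.226). Pdgfd was at -0.24 (SE 0.0966, edgeR adjusted p = 0.381). Of 13 Notch ligands, receptors and targets none was called (4 above and 9 below, median -0.04). The ligand Dll4 was at -0.18, the effector Rbpj at -0.17, and the targets Hes1 and Hey1 at 0.17 and 0.13. The 4 SRF and myocardin factors were near 0, with Myocd at -0.07, Mrtfb at 0.05, Srf at 0.02 and Mrtfa at 0.01.

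Endothelial and fibroblast markers were read beside these values, since capillaries carry pericytes and fibroblasts also express Pdgfrb. The summed endothelial markers were 1019 to 1232 CPM in the controls and 967 to 1062 CPM in the KO libraries. Of the 10 endothelial genes none was called by edgeR. Of them 9 were below 0, as were 7491 of the 14695 genes tested, and 4 had an unadjusted p below 0.05, where 11.9% of all genes did. The median log2 fold change was -0.18. The summed fibroblast markers were 2472 to 3184 CPM and 2375 to 3274 CPM. The part of either in the mural values was not tested.

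Acta2 belongs to a family of near-identical actins, so reads shared with Acta1, Actc1 or Actg2 can be lost or misplaced. Reads that mapped to several places were 16.8% to 20.3% of the reads listed in each file. These 3 paralogs were added after values had been seen. Acta1 was at 463.6 to 1058 CPM in the controls and 209.0 to 1029 CPM in the KO libraries, and Actg2, the actin of visceral smooth muscle, at 1.55 to 5.36 and 1.32 to 2.04 CPM. Acta2 was carried by 2929 to 11231 reads per library, so counting error is small beside the spread between mice. The same holds less for Cnn1, with 73 to 346 reads.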

How the data were processed

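The deposited files hold read counts per Ensembl gene, one file per library. The authors' tools were STAR, HTSeq and DESeq2 on GRCm38, per the submitters' processing notes; for versions, annotation release and strand setting, the sources used here give nothing. Libraries were stranded TruSeq mRNA from 1 microgram of total RNA per mouse, per the labels' protocols. Summary lines that name no gene (no feature 3.07% to 4.08%, ambiguous 1.26% to 1.38%, multiply mapped 16.8% to 20.3%) were left out of library sizes.

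Counts were analysed with edgeR 4.0.16 in R 4.3.3: filterByExpr by genotype left 14695 genes, with TMM factors, a quasi-likelihood fit of genotype and sex, and Benjamini-Hochberg adjustment over all genes at 0.05. The KO effect in each sex, and the contrast of the 2, used a model with a separate mean for every combination of sex and genotype. Each SE was the size of the log2 fold change divided by the square root of the edgeR F statistic. The confidence intervals were built from that SE and the t distribution. RPKM used merged GENCODE exons. Log2 CPM used a prior count of 2. Alternatives were DESeq2 1.42.0, limma 3.58.1 (voom), other scalings and filters, and leaving out each library. The fits were also run on simulated counts with planted changes, and the outcome is not reported here. That simulation gave no library a composition of its own, unlike control 4. Correlations used exact permutation tests written for this report, with ranks from scipy 1.17.1. Upstream sequences were matched to RefSeq, GRCm38.p6, for 7 of 10 markers, showing only bases before the first annotated base except for the 2 Acta2 elements.

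The members and gene lists were chosen with earlier results of these data known. Beyond the members, up to 4 genes per neighbouring list were named, those with the smallest p-values, and 5 per profile by r, of which 1 is not reported here.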

Additional observations from a re-analysis of the deposited data

Results flagged for a closer look

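Each marker and each list's summed CPM was checked within each genotype for 1 library far from the other 3 (Dixon's test at 95%), 60 groups in all. Chance flags about 1 in 20 such groups. None of the 10 markers was picked out, and 3 list sums were. The further pericyte genes summed to 613 CPM in KO 3, against 559 to 565 CPM in the other 3 KO libraries. The atrial markers summed to 6169 CPM in control 4, against 411 to 874 CPM in the other controls. The epicardial and mesothelial markers summed to 33.6 CPM in control 4, against 5.62 to 7.46 CPM in the other controls.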

How the results depend on the processing

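For KO against control, no member was called under DESeq2, limma voom, other scalings, a stricter filter, no sex term, a threshold of 0.1 or without any 1 library. Only the fit with no low count filter called members: 2, Acta2 (adjusted p = 0.00212) and Cnn1 (0.0495), against ranges of 0.347 to 0.862 and 0.299 to 0.894 over the other edgeR, DESeq2 and limma alternatives. Genes called over the whole table moved from 15 to 148 with DESeq2, 621 with no low count filter, 6 with no sex term, 30 at a threshold of 0.1, and 0 to 50 leaving out 1 library. With the replicate number as a block, 0 genes and 0 members were called. Libraries of the same number did not deviate together (r of 0.179, -0.0268, -0.305 and 0.0106). These values cannot show whether the mice were paired, and the main fit did not use the numbers as pairs. The cause of these shifts was not tested.

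For the difference between sexes, members called moved from 0 to 1 with DESeq2 (Acta2) and 3 with no filter (Acta2, Tagln, Abcc9). Genes called moved from 0 to 15 and 243, and ranged from 0 to 8 leaving out 1 library. For male against female, 1 member was called with no filter (Acta2, adjusted p = 0.00881). Genes called moved from 44 to 232 with DESeq2, 742 with no filter and 82 at a threshold of 0.1, and ranged from 16 to 176 leaving out 1 library. Member pairs that covaried moved from 0 to 3 with genotype and sex removed, and ranged from 0 to 2 leaving out 1 library. The 3 rest on a permutation of values with means removed, whose p-values can be too small. Calls in the other lists, an alternative chosen after seeing the data, numbered 2 with no filter and 0 otherwise. The genes named from those lists, also refitted without control 4 after seeing the data, kept their signs and were not called.

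With library totals alone, signs turned for Kcnj8 (-0.00445, KO against control; -0.022, male against female) and Pdgfrb (0.00152, difference between sexes; -0.054, male against female). Leaving out 1 library turned signs, all of uncalled values. The ranges for KO against control were -0.26 to 0.054 for Myh11, -0.31 to 0.12 for Tagln, -0.034 to 0.099 for Notch3 and -0.059 to 0.077 for Kcnj8. For the difference between sexes they were -0.30 to 1.38 for Cnn1, -0.33 to 0.051 for Rgs5, -0.13 to 0.017 for Pdgfrb and -0.26 to 0.084 for Kcnj8. For male against female they were -0.42 to 0.034 for Tagln, -0.096 to 0.056 for Rgs5, -0.013 to 0.046 for Pdgfrb, -0.023 to 0.11 for Kcnj8 and -0.097 to 0.12 for Abcc9.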
